A study of Mus musculus with 24 samples.

Results

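The results concern the livers of C3H/HeJ mice and the change in their RNA when the diet lacked methyl donors. The members are the arrays whose sample titles name the C3H strain, 8 of the 24 arrays in the series, each of them 1 liver RNA sample read on an Agilent mouse array in 1 colour. 4 arrays came from mice given a deficient diet, and 4 came from mice given a control diet. The deficient diet was an L-amino acid-defined, iron-supplemented diet with 0.17% methionine by weight and neither choline nor folic acid. The control diet had the same base, with methionine at 0.4%, folic acid at 2 mg/kg and choline bitartrate at 0.3%, so that both groups received added iron. All mice were male, began their diet at 8 weeks of age, stayed on it for 12 weeks and were 20 weeks old when the liver was taken. The other 16 arrays are A/J and WSB/EiJ mice under the same design, and they enter below only where the diet effect was tested against that of C3H/HeJ. The labels give replicate numbers without naming the animals behind them, so the p-values measure only the spread between these samples.

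Methionine, choline and folate feed the cycle that makes S-adenosylmethionine, the cell's methyl donor. Choline and methylated phosphatidylethanolamine are the sources of phosphatidylcholine, which the hepatocyte needs to coat the lipoproteins that carry triglyceride out of the liver. Diets short of these nutrients are used in rodents to produce fatty liver with inflammation, fibrosis and hepatocyte turnover. C3H/HeJ mice also carry a known inactivating mutation of Tlr4, the receptor for bacterial lipopolysaccharide.

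Levels are given as log2 processed signal minus the array's 75th percentile, so that 0 is the 75th percentile of that array, and differences are log2 of deficient over control with their standard error (n = 4 and 4). A gene is said to rise or fall where limma's moderated test over the 8 arrays gave a Benjamini-Hochberg adjusted p under 0.05 across all 14355 genes tested. The share of gene spots above background was 49.2% to 56% on the deficient arrays and 44.8% to 51.7% on the control arrays, and no gene spot was saturated. Each of the 3 slides held both diets of this strain. Deficient replicate 4 stood apart from the other deficient arrays. On the first principal component, which held 74.3% of the variance, the deficient arrays scored 69, 78.3, 46.5 and 13.2, against -63.1 to -47 on the control arrays. Over the 6394 genes called without it, the median shift of deficient replicate 4 from the control mean was 42.7% of the shift of the other 3 deficient arrays, and 88.8% of those genes moved in their direction. Values without it are given where it decides a result.

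Of the 14355 genes, 4544 changed (31.7%), 2185 of them higher in the deficient group (15.2%) and 2359 lower (16.4%). An unadjusted p under 0.05 was reached by 6567. Of the genes that rose 1422 changed at least 2-fold, and of those that fell 559. The 2 groups did not overlap at 4857 genes (33.8%), and they did not overlap for any gene whose levels are printed below unless the text says so. The share of higher calls was 48.1%, and it was 63.1% with arrays centred on the median and 88.2% with arrays scaled on the spike-in probes. The spike-in scaling moved the median of all genes by 0.455 from its value of -0.129, so directions of small falls below are relative to the bulk of the genes on each array. Without deficient replicate 4 the falls numbered 3893 and the rises 2577. Counts of list members below stand against the 15.2% of all genes that rose and the 16.4% that fell. Of genes above background on all control arrays 11.7% rose, and of those above it on all deficient arrays 16.1% fell. In bulk tissue, fewer cells of a type and less RNA per cell cannot be told apart, which holds for every gene below.

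The largest rises were of a surface antigen, a ubiquitin-like protein, a DNA repair protein and secreted proteins. Ly6d, a small surface protein known from lymphocyte and epithelial precursors (probe at chr15:74592551-74592610 in the mm9 coordinates of the scanner files), had levels of 6.53, 6.79, 6.46 and 5.43 on the deficient arrays, against -2.98, -3.40, -3.12 and -2.42 on the control arrays. All 4 deficient arrays were far above every control array, and the difference of 9.28 ± 0.31 was the largest among genes above background on at least 3 arrays of each group (adjusted p = 3.85e-06). Ubd, the ubiquitin-like modifier FAT10 (probe at chr17:37332688-37332747), had levels of 6.19, 6.04, 5.10 and 4.19 on the deficient arrays, against -2.51, -3.97, -2.75 and -2.40 on the control arrays. It rose by 8.28 ± 0.49, with deficient replicates 1 and 2 highest and replicate 4 lowest of the deficient arrays (adjusted p = 3.77e-05). Rad51b, a homologous recombination protein, had levels of 3.04, 3.01, 3.10 and 1.98 on the deficient arrays, against -3.19, -3.18, -2.87 and -2.96 on the control arrays, a difference of 5.83 ± 0.25 with deficient replicate 4 somewhat below the other deficient arrays. Spink1, a secreted trypsin inhibitor, had levels of 3.00, 3.07, 2.90 and 2.79 on the deficient arrays, against -2.37, -1.81, -3.27 and -3.97 on the control arrays, and rose by 5.80 ± 0.41, with little spread among the deficient arrays. Nrg1, a ligand of the ErbB receptors, rose by 5.27 ± 0.33, and Slc35f2, a solute carrier, by 5.04 ± 0.46. The antiprotease Slpi rose by 4.99 ± 0.47, the stress protein Nupr1 by 4.65 ± 0.28 and the interferon-regulated Ifi27l2b by 4.55 ± 0.27. The other 6 of the 15 largest rises were Cyp4a14, Cidec, H2-Eb1, Timp1, H2-Ab1 and Ccl2, described with their pathways.

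**Figure D1:**
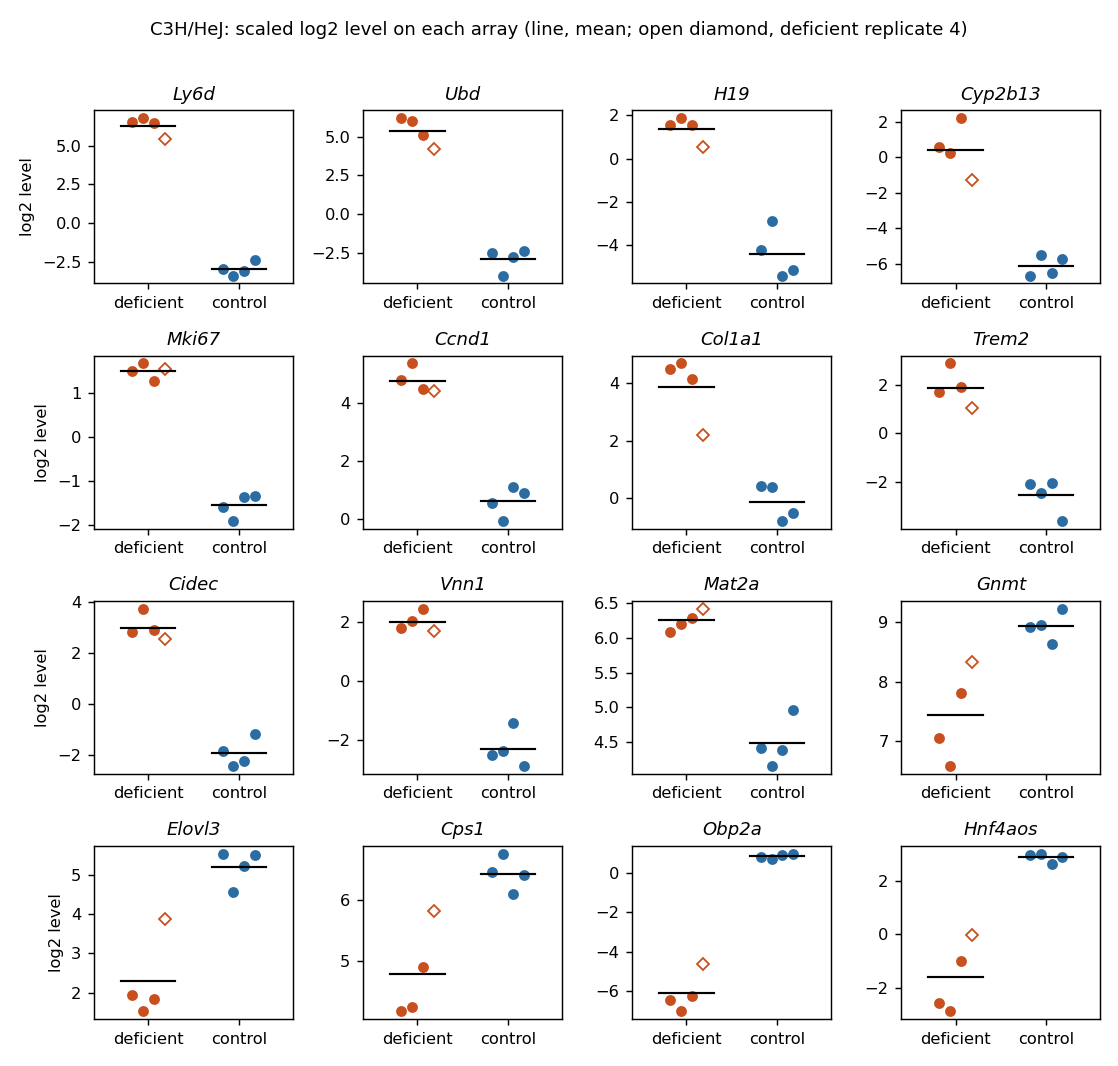
Scaled log2 level of 16 genes on each C3H/HeJ array, deficient diet on the left of each panel and control diet on the right, with the group mean as a line and deficient replicate 4 as an open diamond. The groups do not overlap in any panel. Deficient replicate 4 is the deficient array nearest to the controls in every panel but those of Mki67 and Mat2a, though only slightly so for Ccnd1.

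Some genes were measurable only on 1 diet, and for these a lower bound of the fold is given. It sets the mean of the brighter group against, on each array of the dimmer group, whichever is higher, the signal of that gene or the dimmest signal still well above background. Gipc2, a scaffold protein, was at least 40.8-fold higher on the deficient diet, with levels of 1.42, 2.70, 1.52 and -0.23 on the deficient arrays, against -5.90, -5.57, -4.96 and -4.30 on the control arrays. The maternally expressed non-coding RNA H19 had levels of 1.53, 1.87, 1.57 and 0.55 on the deficient arrays, against -4.24, -2.88, -5.42 and -5.18 on the control arrays, and was at least 33.9-fold higher, and its 5 other probes differed by 2.92 to 5.42. Cyp2b13, a cytochrome of the adult female liver, had levels of 0.58, 0.21, 2.18 and -1.29 on the deficient arrays, against -6.64, -5.49, -6.49 and -5.71 on the control arrays, and was at least 21.4-fold higher. No control array was well above background for any of these. Mmp13, a collagenase, was at least 16.5-fold higher, and Hcar2, the niacin receptor, at least 18.1-fold, but a second Hcar2 probe differed by only 0.35. In the other direction Obp2a, an odorant-binding lipocalin (probe at chr2:25557738-25557797), had levels of -6.43, -7.02, -6.25 and -4.63 on the deficient arrays, against 0.78, 0.70, 0.93 and 0.97 on the control arrays. No deficient array was well above background, all control arrays were close together, and Obp2a was at least 48.8-fold lower on the deficient diet. Moxd1, a copper monooxygenase relative, was at least 8.63-fold lower, the exchange factor Tiam2 at least 7.23-fold and the protease Capn8 at least 4.31-fold. Of the called genes, 250 were above background on no control array and 4 on no deficient array.

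Among the falls measured on both sides, Hnf4aos, the antisense transcript at the Hnf4a gene (probe at chr2:163319601-163319660), had levels of -2.56, -2.87, -0.98 and -0.03 on the deficient arrays, against 2.98, 3.02, 2.63 and 2.92 on the control arrays. It fell by 4.49 ± 0.56 (adjusted p = 0.000955), the largest fall among genes above background on at least 3 arrays of each group, and deficient replicate 4 was the least changed array. Hnf4a itself, the nuclear receptor that maintains hepatocyte identity, overlapped between the groups and differed by -0.43 ± 0.23 (adjusted p = 0.167) on a probe of its own. How far the arrays tell the strands apart was not tested. The adhesion receptor Adgrf1 (-4.26 ± 0.53), the proteoglycan Cspg5 (-4.01 ± 0.38) and Cyp26a1, which degrades retinoic acid (-3.91 ± 0.82), fell. Adgrf1 had levels of -4.21, -4.33, -3.87 and -1.64 on the deficient arrays, against 0.61, 0.62, 0.99 and 0.76 on the control arrays, and deficient replicate 4 again lay between the rest and the controls. The potassium channel Kcnk1 (-3.76 ± 0.39), the transcription factor Pax2 (-3.74 ± 0.62), the dicarboxylate transporter Slc13a2 (-3.60 ± 0.53) and the carboxylesterase Ces4a (-3.38 ± 0.59) also fell. The remaining 6 of the 15 largest falls besides Cyp2c38 were Serpina4-ps1 (-3.42 ± 0.70), Gm5591 (-3.02 ± 0.45), Gm4956 (-3.0 ± 0.53), the proton pump Atp12a (-2.94 ± 0.52), Vmn1r214 (-2.91 ± 0.40) and 1700016K05Rik (-2.90 ± 0.35). Cyp2c38 fell by 3.56 ± 0.68 on the probe used, but its other probe differed by 2.19 and the gene was not called with the mean of its probes.

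Mitosis genes rose as a block. They encode the cyclins, kinases, kinesins and spindle proteins of cells that divide, which are scarce in the adult liver. Of 30 listed genes 25 were tested, and all 16 that were well above background on every control array rose, where 11.7% of such genes rose over the whole table. Their median difference was 2.59, against -0.164 over all genes with that filter. Mki67, the Ki-67 proliferation antigen, had levels of 1.49, 1.66, 1.26 and 1.53 on the deficient arrays, against -1.58, -1.90, -1.36 and -1.35 on the control arrays. The 4 deficient arrays were close together and clear of the controls, a rise of 3.03 ± 0.16 (adjusted p = 2.52e-05), and a second probe differed by 3.18. Ccnb2, cyclin B2, had levels of 1.48, 1.84, 1.39 and 1.87 on the deficient arrays, against -1.16, -1.35, -1.26 and -0.84 on the control arrays, and rose by 2.80 ± 0.16. Plk1, the polo-like kinase, had levels of -0.28, 0.28, -0.47 and -0.20 on the deficient arrays, against -2.96, -2.93, -3.13 and -2.80 on the control arrays, and rose by 2.79 ± 0.17. In both genes deficient replicate 4 was as high as the other deficient arrays. The centromere motor Cenpe rose by 2.97 ± 0.17, and topoisomerase Top2a, above background on no control array, was at least 6.2-fold higher. Over the list, deficient replicate 4 scored 2.62, inside the range of 2.43 to 2.92 of the other deficient arrays, and that was so for only 3 of the 25 lists whose median lay at least 0.5 from that of all genes. The score took in all 25 tested genes. Those not above background on every control array had passed the filter by being above it on every deficient array, replicate 4 among them. No score is given for the 16 alone.

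The starts of these genes carry known cell cycle elements, and stretches from RefSeq's mouse genome (GRCm38.p6) are printed for some that rose. The mitosis genes shown rose with their list, while Mcm5 and Mcm6 rose in a DNA replication list that was split. In each, 5′ to 3′ along the gene, the capitals mark the searched letters: the cell cycle homology region as TTTGAA and the CCAAT box as CCAAT in the mitosis genes, and E2F sites as TTTGGCGC, TTTCCCGC or TTTCGCGC with CCAAT boxes in the replication genes, each on either strand, so that overlapping matches run together.
Ccnb2 (chr9:70421535-70421731, minus strand): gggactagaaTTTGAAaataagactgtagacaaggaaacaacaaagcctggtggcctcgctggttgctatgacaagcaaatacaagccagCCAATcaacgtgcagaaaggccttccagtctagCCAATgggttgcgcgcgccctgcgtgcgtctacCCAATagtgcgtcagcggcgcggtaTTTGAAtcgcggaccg
Cdc20 (chr4:118437337-118437406, minus strand): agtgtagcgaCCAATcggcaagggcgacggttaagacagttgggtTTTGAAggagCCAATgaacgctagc
Plk1 (chr7:122159411-122159480, plus strand): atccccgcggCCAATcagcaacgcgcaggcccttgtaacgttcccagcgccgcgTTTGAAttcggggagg
Aurka (chr2:172370523-172370631, minus strand): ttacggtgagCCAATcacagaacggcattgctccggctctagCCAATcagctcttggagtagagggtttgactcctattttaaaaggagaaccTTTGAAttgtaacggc
Mcm5 (chr8:75109346-75109529, plus strand): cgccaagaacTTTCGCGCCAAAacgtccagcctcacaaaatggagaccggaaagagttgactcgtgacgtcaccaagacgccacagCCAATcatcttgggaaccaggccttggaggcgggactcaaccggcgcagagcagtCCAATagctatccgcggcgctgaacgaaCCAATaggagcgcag
Mcm6 (chr1:128359705-128359825, minus strand): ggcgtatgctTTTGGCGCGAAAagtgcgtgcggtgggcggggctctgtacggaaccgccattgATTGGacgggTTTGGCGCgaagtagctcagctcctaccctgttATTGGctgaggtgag
Windows from 250 bases before to 50 after the start were available for 25 of the 30 listed mitosis genes. These are not the same 25 genes as those tested. Cenpf, Kif11, Kif23 and Ttk had windows, each with both elements, but were not tested for the diet effect. TTTGAA was in 20 of them (80%), against 18.1% of 27025 windows of all genes, and CCAAT in 21 (84%), against 37.9%. Both were in 18 (72%), against 7.12%. An E2F match was in 1 mitosis window (4%) and in 9 of 21 windows of DNA replication genes (42.9%), against 1.91% of all windows. Such a match did not go with a rise at every gene, as Mcm7 held it and was not called. These are matches of letters in the reference strain's sequence, and binding was not measured.

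DNA replication genes were split. Of 27 listed, 26 were tested, and 13 of the 24 above background on all control arrays rose, with a median of 0.52. Mcm6, of the helicase that unwinds origins, had levels of 4.36, 4.51, 4.81 and 4.05 on the deficient arrays, against 2.66, 2.47, 2.65 and 2.58 on the control arrays, and rose by 1.85 ± 0.16. Mcm5, its partner, had levels of 0.71, 0.75, 1.16 and 0.14 on the deficient arrays, against -1.67, -1.77, -1.32 and -1.29 on the control arrays, and rose by 2.20 ± 0.22, and deficient replicate 4 was the lowest of the deficient arrays for both. Gins2 of the replicative helicase rose by 2.62 ± 0.28, though not every array was above background for it. Rrm2, the regulated subunit of ribonucleotide reductase, rose by 1.58 ± 0.19. In contrast Mcm7 differed by 0.02 ± 0.14 (adjusted p = 0.911) with overlapping groups, and the sliding clamp Pcna by 0.24 ± 0.11 (adjusted p = 0.136). The thymidine kinase Tk1 differed by -0.82 ± 0.30 and overlapped between the groups (adjusted p = 0.0641).

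Regulators of the G1 phase set entry into the cycle. Of 18 above background on every control array 4 rose, where 11.7% of such genes rose over the whole table. Ccnd1, cyclin D1 (probe at chr7:152116202-152116261), had levels of 4.82, 5.37, 4.49 and 4.41 on the deficient arrays, against 0.57, -0.05, 1.10 and 0.91 on the control arrays. All deficient arrays were above all controls, a rise of 4.14 ± 0.29 or 17.6-fold (adjusted p = 5.99e-05). Cdkn1a, the cyclin-dependent kinase inhibitor p21 (probe at chr17:29237377-29237436), had levels of 0.11, 0.44, -0.13 and -0.69 on the deficient arrays, against -3.80, -4.67, -3.64 and -3.56 on the control arrays. It rose by 3.85 ± 0.30 (adjusted p = 0.000107), although only 2 control arrays were above background. A driver of division and an inhibitor of it rose in the same samples. Cdkn2c, another inhibitor, rose by 2.92 ± 0.41, with 3 control arrays above background. The retinoblastoma relative Rbl1 rose by 2.15 ± 0.16 (other probe 1.03) and E2f1 by 1.68 ± 0.24.

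The list that joins p53 targets and homologous recombination genes rose in part. Of 20 members above background on all control arrays 5 rose, where 11.7% of such genes rose over the whole table. Their median was 0.11, against -0.164 over all genes with that filter. The target Phlda3 had levels of 2.49, 3.18, 2.62 and 1.79 on the deficient arrays, against -0.66, -0.64, -0.75 and -1.12 on the control arrays, and rose by 3.31 ± 0.27, and all its control arrays were close together. Mdm2, the p53 ligase, differed by 0.12 ± 0.12 (adjusted p = 0.434) and Trp53, which encodes p53, by 0.07 ± 0.23 (adjusted p = 0.838). Both overlapped between the groups.

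**Figure D2:**
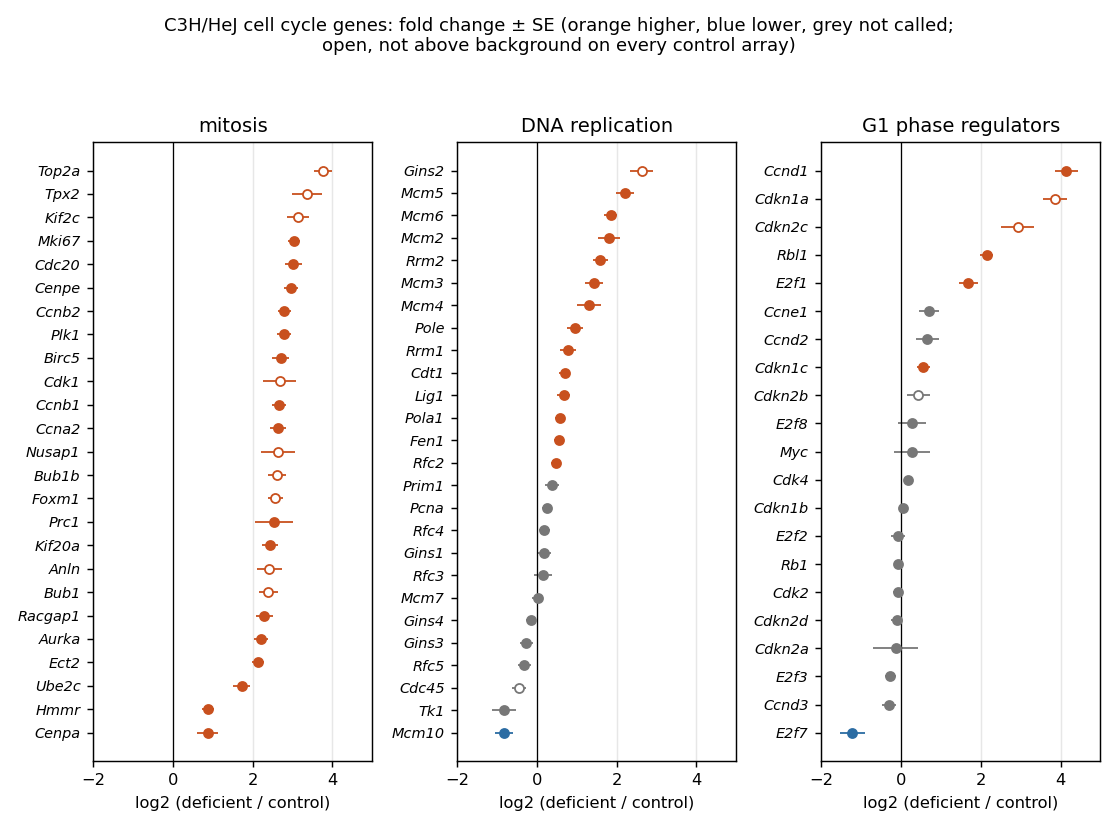
Log2 fold change, deficient over control, with its standard error for the tested members of 3 cell cycle lists in C3H/HeJ livers; orange points rose, blue fell, grey were not called, and open points were not above background on every control array. The 25 mitosis genes all lie above 0, while replication and G1 genes spread to both sides of it.

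Genes of fetal and tumour liver rose. Of 20 listed, 14 were tested, and 8 of the 9 above background on all control arrays rose, with a median of 2.11. Afp, the fetal serum protein alpha-fetoprotein, had levels of 1.46, 2.18, 1.19 and 1.10 on the deficient arrays, against -1.04, -0.89, -0.53 and -0.44 on the control arrays. It rose by 2.21 ± 0.25 (adjusted p = 0.000598) with no overlap. Golm1, a Golgi protein used as a serum marker in human liver disease, rose by 3.32 ± 0.49. The tetraspanin Tspan8 rose by 3.27 ± 0.29, the transcription factor Sox4 by 2.11 ± 0.28 and the imprinted gene Mest by 1.63 ± 0.17. Gpc3, a fetal proteoglycan, rose by 1.85 ± 0.29, with 1 control array above background. Tff3, a trefoil peptide, moved the other way, with levels of 0.64, -0.48, -0.23 and 3.48 on the deficient arrays, against 3.68, 3.87, 3.68 and 2.63 on the control arrays. Deficient replicate 4 was as high as the controls, and the difference of -2.61 ± 0.78 (adjusted p = 0.0337) was lost when any 1 of deficient replicates 1, 2 and 3 or control replicates 1, 2 and 3 was left out, with an adjusted p up to 0.089.

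Keratins, S100 proteins and annexins rose in 10 of 15 members above background on all control arrays, with a median of 1.34. S100a11, a calcium-binding protein, had levels of 2.07, 2.40, 1.71 and 1.36 on the deficient arrays, against -2.04, -2.18, -2.26 and -2.25 on the control arrays, and rose by 4.07 ± 0.21 (adjusted p = 2.52e-05). Anxa2, a membrane-binding annexin, had levels of 7.54, 7.70, 7.14 and 6.51 on the deficient arrays, against 3.50, 3.33, 3.39 and 2.99 on the control arrays, and rose by 3.92 ± 0.25. Krt8, which with Krt18 forms the hepatocyte's keratin filaments, rose by 1.66 ± 0.15, and Krt18 rose by 1.12 ± 0.12. Krt23, a keratin known from injured liver, rose by 3.00 ± 0.45. Krt18 was not called in the fit over all 24 arrays. Sqstm1, the adaptor that gathers with these keratins in inclusions, differed by -0.10 ± 0.13 (adjusted p = 0.601).

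Markers of biliary and progenitor cells were less uniform. 5 of 8 members above background on all control arrays rose, but the count over the 11 tested, 6, was 3 to 7 when 1 array was left out, changing by over 1.5 times without deficient replicates 1, 2 or 3 or control replicates 2 or 3. Epcam, a progenitor surface protein, rose by 2.33 ± 0.56 with 1 control array above background, and Prom1 rose by 1.87 ± 0.41. The biliary factor Sox9 differed by 0.55 ± 0.23 (adjusted p = 0.102). The summed level of the 13 markers, relative to each array's 75th percentile, was 48.85 to 66.88 on the deficient arrays and 56.01 to 70.12 on the control arrays. On deficient replicate 4 the list's score was 19.1% of the mean of the other deficient arrays.

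Genes of the EGF, Notch and YAP pathways moved both ways. Besides Nrg1, the EGF receptor ligand Btc rose by 1.68 ± 0.23 and the YAP target Ccn1 by 1.40 ± 0.25. Not every array was above background for Btc. Egfr, the main EGF receptor of the hepatocyte, had levels of 4.80, 4.82, 4.97 and 6.02 on the deficient arrays, against 6.56, 6.57, 6.89 and 7.30 on the control arrays, and fell by 1.68 ± 0.29 (adjusted p = 0.00405), and its other probes differed by -2.29 to -2.18. Met, the hepatocyte growth factor receptor, fell by 0.76 ± 0.18. Of 18 members above background on all control arrays 6 rose, with a median of -0.09. Over the 23 tested 10 rose and 6 fell, the other 4 rises being of genes that passed the filter only through the deficient arrays. With 1 array left out 6 to 11 rose and 3 to 7 fell, changing by over 1.5 times without deficient replicate 1 and, for the falls, without control replicate 3.

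Macrophage and monocyte markers rose in 16 of 17 members above background on all control arrays, with a median of 1.56. Cd68, a scavenger protein of macrophage lysosomes, had levels of 3.07, 3.44, 2.84 and 2.31 on the deficient arrays, against 1.20, 0.97, 1.72 and 0.95 on the control arrays, and rose by 1.71 ± 0.26 (adjusted p = 0.00228). Adgre1, which encodes F4/80, had levels of 2.67, 2.42, 1.89 and 1.68 on the deficient arrays, against 1.07, 1.06, 1.22 and 0.49 on the control arrays, and rose by 1.20 ± 0.25. Itgax, the integrin CD11c, rose by 5.25 ± 0.75 and Ms4a7 by 4.28 ± 0.39, with 1 control array above background for Itgax and 3 for Ms4a7. The summed level of the 22 markers on the array was 172 to 350.5 on the deficient arrays and 88.32 to 107.9 on the control arrays, so the groups did not overlap. Genes of the resident Kupffer cell moved less. Clec4f, their lectin, had levels of 4.51, 4.30, 4.25 and 4.65 on the deficient arrays, against 4.18, 3.65, 4.55 and 4.15 on the control arrays, and overlapped between the groups (0.29 ± 0.19, adjusted p = 0.263). Timd4, a receptor for dying cells on resident macrophages, rose by 0.69 ± 0.15. Of 7 such markers 3 rose, and 1 to 3 rose with 1 array left out, fewer by over 1.5 times without deficient replicates 1 or 2 or control replicates 1, 2 or 4. Their summed level was 86.42 to 129.6 on the deficient arrays and 56.87 to 102.4 on the control arrays.

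Genes of the macrophages that gather around lipid-laden cells rose in 7 of 12 members above background on all control arrays. Trem2, their lipid receptor, had levels of 1.69, 2.89, 1.90 and 1.05 on the deficient arrays, against -2.11, -2.46, -2.06 and -3.62 on the control arrays, and rose by 4.44 ± 0.44 (adjusted p = 0.000329). Gpnmb, a glycoprotein of lipid-laden macrophages, was at least 6.67-fold higher and the elastase Mmp12 at least 9.93-fold. The galectins Lgals1 and Lgals3 rose by 3.06 ± 0.28 and 3.06 ± 0.34. Spp1, osteopontin, had levels of 3.76, 4.78, 3.71 and 2.37 on the deficient arrays, against 1.69, 1.85, 2.11 and 2.04 on the control arrays, and rose by 1.73 ± 0.42, with deficient replicate 4 closest to the controls. Fabp5, a fatty acid-binding protein on the same list, fell by 2.11 ± 0.38.

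Chemokines rose in 8 of 14 members above background on all control arrays, with a median of 1.70. Ccl2, which draws monocytes, had levels of 2.71, 2.40, 2.38 and 1.31 on the deficient arrays, against -2.91, -2.50, -1.94 and -1.91 on the control arrays, and rose by 4.51 ± 0.33 (adjusted p = 7.92e-05). The interferon-induced T cell attractants Cxcl9 and Cxcl10 rose by 3.79 ± 0.40 and 3.33 ± 0.38, and Ccl5 by 3.26 ± 0.53. Ccl9 fell by 1.03 ± 0.17. Among Toll-like receptors, TNF family and inflammasome genes, 12 of 20 such members rose, with a median of 0.90. Tlr4, whose protein is inactive in this strain, had levels of -1.98, -1.87, -2.52 and -2.95 on the deficient arrays, against -3.51, -3.80, -3.30 and -3.61 on the control arrays. Its transcript rose by 1.23 ± 0.24 (adjusted p = 0.00664). Tlr2, which binds bacterial lipoproteins, rose by 2.17 ± 0.36, and Tlr1 was at least 1.67-fold higher. The caspase Casp4 rose by 2.42 ± 0.35 and the cytokine Il1b by 2.33 ± 0.40. Ly96 and Myd88, which bind Tlr4 outside and inside the cell, differed by -0.01 ± 0.12 and 0.01 ± 0.14, and each overlapped between the groups. Tlr9 fell by 0.98 ± 0.24.

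Antigen presentation genes rose, class II genes among them. Of 14 MHC and antigen presentation genes above background on all control arrays 10 rose, with a median of 0.88. H2-Ab1, a class II chain, had levels of 5.52, 5.51, 4.11 and 3.27 on the deficient arrays, against 0.62, -0.64, 0.10 and 0.18 on the control arrays, and rose by 4.54 ± 0.51 (adjusted p = 0.000591). H2-Eb1 rose by 4.58 ± 0.48, H2-DMb1, which loads class II, by 4.11 ± 0.50, and the invariant chain Cd74 by 3.94 ± 0.53. In these 4 genes deficient replicates 1 and 2 were highest, 3 next and 4 lowest. The immunoproteasome subunits Psmb8 and Psmb9 rose by 1.09 ± 0.21 and 1.44 ± 0.29. B2m, the light chain of class I, differed by 0.15 ± 0.15 (adjusted p = 0.457).

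Interferon-stimulated genes rose in 13 of 26 such members, with a median of 0.87. Gbp2, a guanylate-binding protein, had levels of 2.00, 1.56, 0.49 and -0.03 on the deficient arrays, against -1.75, -2.27, -1.72 and -2.04 on the control arrays, and rose by 2.95 ± 0.41 (adjusted p = 0.00148). Oas1a, of the antiviral 2′-5′ oligoadenylate system, rose by 1.04 ± 0.14, Ifit3 by 1.17 ± 0.16 and Ifi44 by 1.64 ± 0.23. Ifit1 differed by 1.14 ± 0.49 without a call (adjusted p = 0.101), and its control replicate 2 was far below the other controls. Irf7, the interferon regulatory factor, differed by 0.06 ± 0.17 (adjusted p = 0.802).

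Lymphocyte markers were split between rising T cell genes and falling ones. Cd3d, of the T cell receptor complex, had levels of -0.48, -1.29, -2.60 and -2.57 on the deficient arrays, against -4.02, -5.85, -4.34 and -4.41 on the control arrays, and rose by 2.92 ± 0.55, with 1 control array above background. Cd2 rose by 2.92 ± 0.49, Cd3g by 3.33 ± 0.71 and the T cell kinase Lck by 2.15 ± 0.41. Cd3e, of the same complex, had levels of 0.70, 0.18, 0.30 and 0.88 on the deficient arrays, against 1.90, 1.94, 1.72 and 1.53 on the control arrays. It fell by 1.26 ± 0.18, with no overlap between the groups, and Jchain, of secreted antibodies, fell by 1.19 ± 0.16. Jchain was not called in the fit over all 24 arrays. Of 9 lymphocyte markers above background on all control arrays 3 rose, with a median of -0.15. Over the 14 tested 8 rose and 3 fell, the other 5 rises being of genes that passed the filter only through the deficient arrays. The summed level ran from 26.88 to 48.99 on the deficient arrays and from 57.9 to 89.21 on the control arrays. Without deficient replicate 2 the number that rose was 5. Neutrophil markers were at 68.91 to 81.83 on the deficient arrays and 77.37 to 102.1 on the control arrays.

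Matrix genes rose. Collagens rose in 10 of 14 members above background on all control arrays, with a median of 1.31. Col1a1, a chain of the main fibrillar collagen of scar (probe at chr11:94813115-94813174), had levels of 4.50, 4.68, 4.13 and 2.19 on the deficient arrays, against 0.42, 0.39, -0.77 and -0.51 on the control arrays. Deficient replicates 1 to 3 were close together, replicate 4 lay between them and the controls, and the rise was 3.99 ± 0.54 (adjusted p = 0.00133) or, without replicate 4, 4.56. Col3a1 had levels of 4.73, 5.11, 4.41 and 3.30 on the deficient arrays, against 1.74, 1.60, 1.25 and 1.05 on the control arrays, and rose by 2.98 ± 0.36. Col1a2 rose by 2.83 ± 0.37, Col6a3 by 2.30 ± 0.34 and the basement membrane chain Col4a1 by 1.26 ± 0.21. Col27a1 fell by 1.16 ± 0.24. Other matrix and collagen processing genes rose in 7 of 16 such members, among them Serpinh1, the collagen chaperone (1.76 ± 0.21), and Postn, periostin (1.95 ± 0.29). The plasma and matrix protein Fn1 differed by -0.36 ± 0.16 (adjusted p = 0.105).

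Metalloproteinases and their inhibitors rose in 7 of 10 such members. Timp1, the inhibitor that rises in fibrosis, had levels of 1.76, 1.85, 1.31 and -0.11 on the deficient arrays, against -3.14, -3.65, -3.81 and -2.87 on the control arrays, and rose by 4.57 ± 0.42 (adjusted p = 0.000245). Adam8 had levels of 0.79, 1.76, 0.40 and -0.35 on the deficient arrays, against -3.41, -3.33, -3.54 and -2.89 on the control arrays, and rose by 3.94 ± 0.39. In both, deficient replicate 4 was the lowest of the deficient arrays but above every control. Of the TGF-beta genes 8 of 17 rose. The ligand Tgfb1 rose by 0.96 ± 0.21, the receptor Tgfbr2 by 1.67 ± 0.32 and Tgfbi by 1.36 ± 0.26.

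Stellate cell and myofibroblast markers rose in 5 of 15 members above background on all control arrays, where 11.7% of such genes rose over the whole table. Vim, vimentin, had levels of 3.49, 3.81, 3.10 and 2.47 on the deficient arrays, against 1.59, 1.33, 1.16 and 1.06 on the control arrays, and rose by 1.93 ± 0.27, and Pdgfrb, a receptor of stellate cells, rose by 1.50 ± 0.26. Acta2, smooth muscle actin, had levels of 1.17, 1.01, 0.65 and 0.08 on the deficient arrays, against 0.38, -0.13, -1.23 and -1.37 on the control arrays. The groups overlapped, and its difference of 1.31 ± 0.41 (adjusted p = 0.0391) was lost when any 1 of deficient replicates 1, 2 and 3 or control replicates 3 and 4 was left out, with an adjusted p up to 0.105. Lrat, which stores retinol in quiescent stellate cells, differed by 0.60 ± 0.35 (adjusted p = 0.207). The summed level of the 17 markers was 82.04 to 150.3 on the deficient arrays and 60.45 to 99.54 on the control arrays. On deficient replicate 4 this list's score was 7.5% of the mean of the other deficient arrays, the smallest share of the 25 lists. Without that array 10 of 16 tested markers rose in place of 6.

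**Figure D3:**
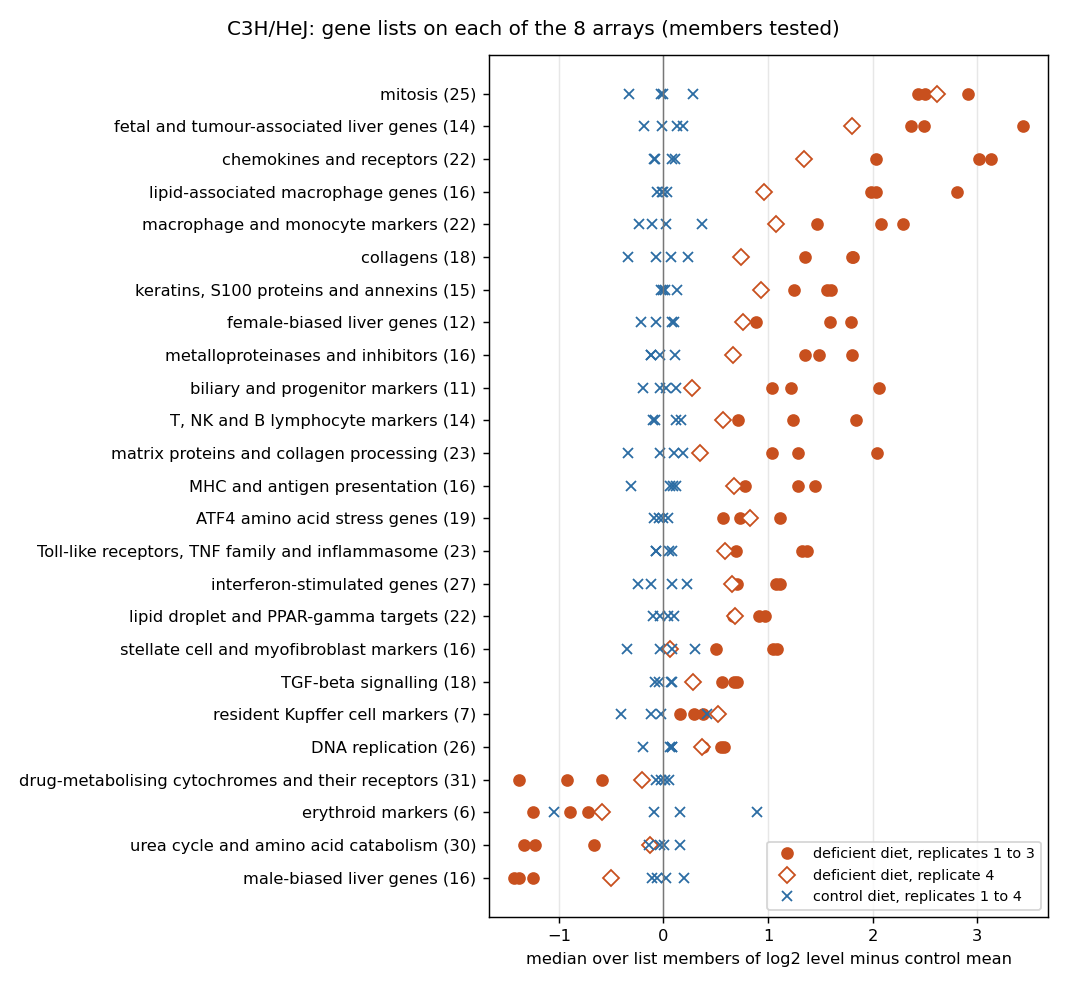
For the 25 gene lists whose median lay at least 0.5 from that of all genes, the median over tested members of the log2 level minus the control mean, on each C3H/HeJ array (filled circles, deficient replicates 1 to 3; open diamonds, deficient replicate 4; crosses, control replicates). Deficient replicate 4 lies within the other deficient arrays for mitosis, ATF4 and lipid droplet genes and near the controls for stellate, biliary, cytochrome and urea cycle genes. The medians include members that passed the background filter only because every deficient array, replicate 4 included, was above background for them.

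Lipid droplet and PPAR-gamma target genes rose in 10 of 19 members above background on all control arrays, with a median of 0.44. Cidec, which fuses lipid droplets, had levels of 2.81, 3.72, 2.87 and 2.52 on the deficient arrays, against -1.84, -2.41, -2.23 and -1.17 on the control arrays. It rose by 4.89 ± 0.32 or 29.7-fold (adjusted p = 5.1e-05), and a second probe differed by 4.59. Its relative Cidea was at least 4.18-fold higher. Mogat1, which makes diacylglycerol, had levels of 1.83, 2.07, 2.01 and -0.01 on the deficient arrays, against -4.72, -4.35, -3.97 and -5.57 on the control arrays, and rose by 6.13 ± 0.50 (adjusted p = 0.000144), with 1 control array above background. Cd36, the fatty acid transporter, had levels of 2.77, 2.95, 3.44 and 2.92 on the deficient arrays, against 0.37, -0.51, -0.14 and 0.11 on the control arrays, and rose by 3.06 ± 0.21. Deficient replicate 4 was among the other deficient arrays for Cd36 and below them for Mogat1. Pparg itself, the nuclear receptor, rose by 1.51 ± 0.27, the droplet coat proteins Plin4 and Plin2 by 2.96 ± 0.41 and 0.97 ± 0.15, and the carrier Fabp4 by 1.30 ± 0.16. Abhd5, the coactivator of triglyceride lipase, fell by 0.82 ± 0.15.

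Fatty acid oxidation and PPAR-alpha targets rose in 6 of 28 such members, where 11.7% of such genes rose over the whole table. Their median was 0.04, against -0.164 over all genes with that filter. Vnn1, a pantetheinase, had levels of 1.82, 2.06, 2.47 and 1.69 on the deficient arrays, against -2.50, -2.39, -1.41 and -2.89 on the control arrays, and rose by 4.31 ± 0.31 (adjusted p = 6.2e-05). Cyp4a14, a fatty acid hydroxylase, had levels of 2.15, 3.52, 4.28 and 3.34 on the deficient arrays, against -2.18, -2.67, -1.12 and -4.06 on the control arrays, and rose by 5.83 ± 0.62. Not every array was above background for Cyp4a14. The hormone Fgf21 rose by 2.98 ± 0.30 and Pdk4, which restrains pyruvate oxidation, by 3.04 ± 0.51. In contrast Cpt1a, which admits fatty acids to the mitochondrion, differed by 0.10 ± 0.16 (adjusted p = 0.643). Ppara itself differed by -0.01 ± 0.20, and the groups overlapped for both.

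Synthesis genes were mixed. Fasn, fatty acid synthase, had levels of 3.15, 1.71, 3.57 and 2.98 on the deficient arrays, against 2.16, 1.26, 1.57 and 2.10 on the control arrays, with overlap between the groups, and differed by 1.08 ± 0.38 without a call (adjusted p = 0.0587), and Scd1, the liver's main desaturase, differed by 0.13 ± 0.45. Its relative Scd2 rose by 1.57 ± 0.30 and the polyunsaturated fatty acid desaturase Fads2 by 1.04 ± 0.14. Mlxipl, the carbohydrate-responsive factor ChREBP, fell by 1.03 ± 0.13, and its other probe differed by -0.43. Of 23 cholesterol synthesis genes 1 fell and none rose, with 7 falling without deficient replicate 4 and none without deficient replicate 1.

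Lipoprotein genes fell in 10 of 25 members above background on all deficient arrays, where 16.1% of such genes fell over the whole table. Apoa4, an apolipoprotein that rises with triglyceride load, went against them. Its levels were 7.18, 7.05, 7.35 and 7.48 on the deficient arrays, against 4.66, 5.41, 5.04 and 4.35 on the control arrays, a rise of 2.40 ± 0.22 (adjusted p = 0.000258) that was as large on deficient replicate 4. Mttp, which loads lipid onto apolipoprotein B, had levels of 4.25, 3.99, 4.39 and 4.58 on the deficient arrays, against 4.84, 4.97, 4.90 and 5.0 on the control arrays, and fell by 0.63 ± 0.14. Apob itself differed by -0.24 ± 0.17 (adjusted p = 0.295). Lcat, which esterifies plasma cholesterol, fell by 0.83 ± 0.18.

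Bile acid genes fell in 10 of 23 members, and 2 of 22 above background on all control arrays rose. Cyp27a1, of the alternative synthesis pathway, had levels of 2.55, 3.01, 2.86 and 3.44 on the deficient arrays, against 4.37, 4.33, 4.38 and 4.41 on the control arrays, and fell by 1.41 ± 0.18 (adjusted p = 0.000988). Abcb11, the bile salt export pump, fell by 0.96 ± 0.12. Cyp7a1, the rate-limiting enzyme of the classical pathway, differed by -0.50 ± 0.28 (adjusted p = 0.19) and overlapped. Slc51b, which exports bile salts to the blood, rose by 2.78 ± 0.59, and Abcb4, the phosphatidylcholine exporter of the canaliculus, rose by 0.84 ± 0.13, with levels of 7.81, 7.89, 7.87 and 7.72 on the deficient arrays, against 6.86, 7.29, 6.87 and 6.92 on the control arrays.

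Some genes of hepatocyte function fell, by smaller amounts. Of 31 drug-metabolising cytochromes and their receptors above background on all deficient arrays, 17 fell, with a median of -0.75, against -0.126 over all such genes. Cyp2c29 had levels of 5.47, 5.56, 6.38 and 7.08 on the deficient arrays, against 8.06, 8.19, 8.08 and 8.27 on the control arrays, and fell by 2.03 ± 0.33 (adjusted p = 0.0028). Cyp2c70, which makes muricholic acid in mice, had levels of 6.77, 6.87, 6.88 and 7.57 on the deficient arrays, against 8.53, 8.82, 8.52 and 9.37 on the control arrays, and fell by 1.79 ± 0.24, and Cyp3a25 fell by 1.63 ± 0.24. Cyp2e1, the ethanol-inducible cytochrome, differed by -0.51 ± 0.21 (adjusted p = 0.083). The inducible Cyp2b10 differed by 1.11 ± 0.51 (adjusted p = 0.122). Conjugating enzymes fell in 11 of 20 members, where 16.4% of all genes fell, among them the glucuronosyltransferase Ugt2b5 (-1.21 ± 0.13).

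Urea cycle and amino acid catabolism genes fell in 17 of 30 members, where 16.4% of all genes fell, with a median of -0.85. Cps1, the first enzyme of the urea cycle, had levels of 4.18, 4.25, 4.90 and 5.82 on the deficient arrays, against 6.45, 6.75, 6.10 and 6.40 on the control arrays. Deficient replicate 4 was nearest to the controls but below all of them, and the fall was -1.64 ± 0.34 (adjusted p = 0.00857). Arg1, arginase, had levels of 5.51, 5.45, 6.60 and 6.96 on the deficient arrays, against 7.59, 7.72, 7.51 and 7.71 on the control arrays, and fell by 1.50 ± 0.33. Otc, of the urea cycle (-0.99 ± 0.20), and Agxt, which detoxifies glyoxylate (-1.39 ± 0.28), also fell. Glul, the glutamine synthetase of the cells around the central vein, went the other way, with levels of 5.64, 6.03, 5.81 and 6.02 on the deficient arrays, against 5.29, 5.24, 5.14 and 5.05 on the control arrays, a rise of 0.70 ± 0.13 (adjusted p = 0.00491). Pck1, the enzyme that commits to glucose synthesis, fell by 2.06 ± 0.46. Of the glycolytic isoforms known from dedifferentiated liver, Pkm rose by 1.67 ± 0.26 and Hk2 by 1.92 ± 0.35.

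Secreted plasma proteins fell in 12 of 26 members and coagulation and complement genes in 14 of 34, where 16.4% of all genes fell. Alb, albumin, had levels of 10.48, 10.30, 10.97 and 10.96 on the deficient arrays, against 11.07, 11.04, 10.91 and 11.53 on the control arrays, and overlapped between the groups (-0.46 ± 0.20, adjusted p = 0.107). Fetub, fetuin-B (-1.17 ± 0.27), the plasmin inhibitor Serpinf2 (-0.99 ± 0.19), the clotting factor F7 (-1.14 ± 0.18) and the complement genes C9 (-1.35 ± 0.24) and C8b (-1.70 ± 0.32) fell. Serpina7, thyroxine-binding globulin, went against them with levels of 4.05, 3.33, 2.94 and 2.34 on the deficient arrays, against 0.77, -0.63, 1.20 and 1.88 on the control arrays, a rise of 2.36 ± 0.53. Hepatocyte transcription factors fell in 1 of 19 members, and Onecut1 differed by -0.63 ± 0.31 (adjusted p = 0.146). Acute phase genes diverged. Lcn2, lipocalin-2, had levels of 5.69, 6.38, 5.69 and 4.84 on the deficient arrays, against 1.26, 0.42, 1.93 and 2.65 on the control arrays, and rose by 4.08 ± 0.48 (adjusted p = 0.00068), the lipopolysaccharide receptor Cd14 rose by 3.81 ± 0.33, and the serum amyloid Saa1 differed by -0.96 ± 0.33 (adjusted p = 0.0546).

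The counts of falling members rested on single arrays. Over fits with 1 array left out, 8 to 21 cytochromes fell, changing by over 1.5 times without deficient replicates 1 or 2 or control replicates 1, 3 or 4. Urea cycle genes numbered 10 to 24 (deficient 1 and 2, control 1 and 4), conjugating enzymes 7 to 12 (deficient 1 and 2) and bile acid genes 4 to 12 (deficient 1 and 2, control 1, 3 and 4). Plasma proteins numbered 3 to 18 (deficient 1 and 2, all controls), coagulation and complement genes 9 to 29 (deficient 1 and 4) and lipoprotein genes 4 to 15 (deficient 1 and 2, control 1, 3 and 4). Hepatocyte transcription factors numbered 1 to 9 (deficient 4, control 1 and 2), and 9 fell without deficient replicate 4. Of 37 respiratory chain subunits 32 fell without that array in place of 6, and their count moved by over 1.5 times whichever array was left out. The summed level of 10 hepatocyte markers was 5458 to 8977 on the deficient arrays and 8384 to 12300 on the control arrays. Their part in these falls was not tested.

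Sex-biased genes moved apart. The male liver differs from the female in genes set by the pattern of growth hormone release. Of 15 male-biased genes above background on all deficient arrays 14 fell, with a median of -1.03. Over the 16 tested 15 fell, or 11 to 15 with 1 array left out. Elovl3, a fatty acid elongase, had levels of 1.94, 1.54, 1.85 and 3.88 on the deficient arrays, against 5.53, 4.56, 5.22 and 5.49 on the control arrays. Deficient replicates 1 to 3 were far below the controls, replicate 4 less so, and the fall was -2.90 ± 0.48 (adjusted p = 0.00323). Hsd3b5, a steroid dehydrogenase of the male liver, had levels of 4.97, 5.62, 5.99 and 7.18 on the deficient arrays, against 8.28, 8.24, 8.38 and 8.14 on the control arrays, and fell by 2.32 ± 0.39. Of female-biased genes, 5 of 8 above background on all control arrays rose, among them Cyp2b9, with levels of 1.27, 0.16, 2.59 and 0.78 on the deficient arrays, against -1.71, -3.15, -0.82 and -2.15 on the control arrays, a rise of 3.16 ± 0.59. Acot3, a thioesterase, rose by 2.53 ± 0.51 with deficient replicate 3 highest, and Fmo2 rose by 1.45 ± 0.27. In the growth hormone axis Stat5b, its transcription factor, fell by 0.57 ± 0.12, and Igf1 differed by -0.52 ± 0.24 (adjusted p = 0.126), with other probes at -1.49 to -0.38.

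Clock and iron genes moved little as groups. Of 17 clock genes above background on all deficient arrays 3 fell, near the 16.1% of such genes over the whole table, and none of the 18 tested rose. Nr1d1, the repressor REV-ERB alpha, had levels of 0.92, 1.18, 0.77 and 0.10 on the deficient arrays, against 2.29, 1.66, 2.21 and 2.10 on the control arrays, and fell by 1.32 ± 0.24 (adjusted p = 0.00482), while Dbp, a clock output factor, differed by -0.22 ± 0.17 (adjusted p = 0.329) and Per2 by 0.38 ± 0.31. The hour of sampling is not given. Of 21 iron genes 1 rose and 4 fell, where 15.2% of all genes rose and 16.4% fell. Without deficient replicate 4, 9 iron genes fell. Hamp, hepcidin, differed by -0.49 ± 0.23 (adjusted p = 0.124), Tfr2, an iron sensor, fell by 1.05 ± 0.23, and Id1, a BMP target, rose by 1.66 ± 0.24, with levels of 2.02, 2.12, 1.69 and 1.26 on the deficient arrays, against 0.16, -0.33, 0.05 and 0.57 on the control arrays.

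The one-carbon genes that the diet bears on directly were divided. Methionine cycle and transsulfuration genes fell in 8 of 19 members and rose in 1, with a median of -0.44. Gnmt, the methyltransferase that disposes of excess S-adenosylmethionine, had levels of 7.05, 6.59, 7.81 and 8.33 on the deficient arrays, against 8.92, 8.96, 8.63 and 9.22 on the control arrays. The groups did not overlap, replicate 4 was the highest deficient array, and the fall was -1.49 ± 0.34 (adjusted p = 0.0131). Cth, which makes cysteine (-1.52 ± 0.34), and Cbs, the enzyme before it (-0.98 ± 0.19), fell. Mat2a, the S-adenosylmethionine synthetase of dividing and non-hepatic cells, had levels of 6.09, 6.21, 6.30 and 6.42 on the deficient arrays, against 4.41, 4.16, 4.39 and 4.97 on the control arrays. It rose by 1.77 ± 0.18 (adjusted p = 0.000336), with deficient replicate 4 the highest array. Mat1a, the adult liver synthetase, had levels of 6.91, 6.83, 7.33 and 7.84 on the deficient arrays, against 7.47, 6.55, 7.34 and 7.41 on the control arrays, and overlapped (0.03 ± 0.27, adjusted p = 0.932). Bhmt, which remethylates homocysteine with betaine, differed by -0.52 ± 0.23 (adjusted p = 0.106). The count of 8 falls was 3 to 9 with 1 array left out and changed by over 1.5 times without any array but deficient replicate 4.

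In the folate cycle 1 of 18 members above background on all control arrays rose. It was Mthfd1l, mitochondrial formyltetrahydrofolate synthetase, with levels of 0.97, 1.06, 1.04 and 1.34 on the deficient arrays, against -1.19, -0.76, -1.22 and -1.16 on the control arrays, and a rise of 2.19 ± 0.14 (adjusted p = 5.1e-05), with deficient replicate 4 as high as the rest. Mthfd2, its partner of fetal and dividing cells, had levels of -0.29, -0.87, -1.71 and -1.17 on the deficient arrays, against -3.55, -4.15, -2.86 and -3.07 on the control arrays, and rose by 2.40 ± 0.35, with 2 control arrays above background. No other folate gene rose, and 7 of the 20 fell, or 1 to 7 with 1 array left out, changing by over 1.5 times without deficient replicates 1 or 2 or any control. Of 18 choline and phosphatidylcholine genes 3 fell and none rose, where 16.4% of all genes fell and 15.2% rose. The falls were 1 to 7 when 1 array was left out and moved by over 1.5 times without deficient replicates 1 or 4 or control replicates 2 or 4. Pemt, which makes phosphatidylcholine from phosphatidylethanolamine, differed by -0.36 ± 0.18 (adjusted p = 0.145) and Chka, choline kinase, by -0.12 ± 0.24 (adjusted p = 0.711). Gpcpd1, which releases choline from glycerophosphocholine, fell by 1.34 ± 0.29. Of 11 DNA methylation genes above background on all control arrays none rose, and 1 of the 13 tested fell. Both rises on this list were of genes that passed the filter only through the deficient arrays. Uhrf1, which brings the maintenance methyltransferase to replicating DNA, had levels of 0.49, 0.82, 1.26 and -0.08 on the deficient arrays, against -2.96, -3.83, -2.37 and -2.08 on the control arrays, and rose by 3.43 ± 0.40 (adjusted p = 0.000684). Dnmt1, that methyltransferase, differed by 0.32 ± 0.15 (adjusted p = 0.138) and Dnmt3b by -0.19 ± 0.15.

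Genes of the ATF4 response to amino acid shortage rose in 6 of 15 members above background on all control arrays, with a median of 0.44. Atf3 had levels of 1.53, 2.18, 1.60 and 0.75 on the deficient arrays, against -2.71, -2.61, -2.38 and -0.84 on the control arrays, and rose by 3.65 ± 0.44 (adjusted p = 0.000809). Gdf15, a stress hormone, had levels of 2.91, 3.37, 3.51 and 2.16 on the deficient arrays, against 0.34, 0.08, 0.06 and 0.84 on the control arrays, and rose by 2.66 ± 0.30, and Ddit3, the factor CHOP, rose by 1.01 ± 0.17. The serine synthesis enzymes Psat1 and Phgdh rose by 3.92 ± 0.62 and 1.59 ± 0.25, but their other probes differed by 2.00 for Psat1 and 2.76 for Phgdh. Asns, asparagine synthetase, had levels of 2.51, 1.46, 0.98 and 3.10 on the deficient arrays, against 0.76, 1.88, 0.33 and 0.70 on the control arrays, which overlapped, and its difference of 1.09 ± 0.49 was not called (adjusted p = 0.114). Atf4 differed by -0.38 ± 0.21 (adjusted p = 0.191). Antioxidant genes rose in 9 and fell in 3 of 29 members, where 15.2% of all genes rose and 16.4% fell. Gpx7, a peroxidase of the endoplasmic reticulum, had levels of -0.57, 0.08, -0.61 and -0.49 on the deficient arrays, against -3.21, -3.12, -3.41 and -2.88 on the control arrays, and rose by 2.75 ± 0.18, and Nqo1, a quinone reductase, rose by 1.03 ± 0.20.

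Endothelial markers summed to 102.6 to 118.4 on the deficient arrays and 89.17 to 108.6 on the control arrays, and 4 of 18 rose, with Cd34 at 1.73 ± 0.41 and Lyve1 at 0.92 ± 0.20. Erythroid markers summed to 603.6 to 971.6 on the deficient arrays and 1204 to 2203 on the control arrays, without overlap, and the part of blood in the other results was not tested. Pancreas markers summed to 1.505 to 1.977 on the deficient arrays and 2.286 to 3.092 on the control arrays, also without overlap. Of 12 pancreas markers 7 and of 5 adipose markers 4 were above background on no array, and mesothelial markers summed to 0.8125 to 1.898 on the deficient arrays and 0.7334 to 1.684 on the control arrays. Among lists not described so far, 1 of 46 ribosomal protein genes, 3 of 19 endoplasmic reticulum chaperones and 2 of 16 genes of glucose synthesis and glycogen fell and none of each rose. Lysosomal genes rose in 4 and fell in 3 of 25, pericentral and periportal genes rose in 3 and fell in 6 of 21, and fatty acid synthesis genes rose in 2 and fell in 2 of 22. Over all genes 15.2% rose and 16.4% fell, and the lysosomal counts lay near those shares. Without deficient replicate 4, 9 lysosomal genes rose and 16 ribosomal protein genes fell.

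Some further genes of these pathways complete the account. Tnfrsf12a, the TWEAK receptor of regenerating liver, rose by 2.05 ± 0.19, Anxa5 by 1.34 ± 0.17 and the plasma peroxidase Gpx3 by 1.15 ± 0.19. Hmox1, heme oxygenase, rose by 0.52 ± 0.12, but its other probe differed by 0.04 and the call was lost with the mean of its probes. Stab2, a scavenger receptor of sinusoidal endothelium, rose by 0.87 ± 0.20 on the probe used, and its other probes differed by -0.30 to 0.45. Tat, tyrosine aminotransferase, fell by 1.07 ± 0.26. The biliary keratin Krt19 (1.09 ± 0.35), the progenitor antigen Cd24a (1.44 ± 0.47) and the fatty acid hydroxylase Cyp4a10 (1.12 ± 0.35) were called over all 8 arrays but not when single arrays were left out. Those arrays were deficient replicates 1, 2 and 3 and control replicates 2, 3 and 4 for Krt19, deficient 1, 2 and 3 and control 1, 2 and 3 for Cd24a, and deficient 2, 3 and 4 and control 1, 3 and 4 for Cyp4a10. Without them the adjusted p was up to 0.0927 for Krt19, 0.107 for Cd24a and 0.096 for Cyp4a10. Nnmt, which methylates nicotinamide, differed by -0.64 ± 0.89 without a call (adjusted p = 0.6), and so did the sterol factor Srebf1 by -0.61 ± 0.28 (adjusted p = 0.117). The bile acid enzyme Cyp8b1 (-0.95 ± 0.39), the choline oxidase Chdh (-0.19 ± 0.15), the squalene epoxidase Sqle (-0.48 ± 0.28), the antiprotease Serpina1e (-0.58 ± 0.20) and the clock factor Arntl (-0.92 ± 0.36) were not called either. Nor were Gsta2 (0.66 ± 0.32), Sult1e1 (1.17 ± 0.56), Igfbp1 (0.43 ± 0.40), the transferrin receptor Tfrc (0.37 ± 0.27), the chaperone Hspa5 (-0.29 ± 0.22) and the Wnt target Axin2 (0.44 ± 0.33). Cux2, Igf2 and Lox did not pass the filter on background and were not tested.

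The diet effect in C3H/HeJ was tested against that in WSB/EiJ and in A/J with a strain by diet term over 16 arrays each. It differed from WSB/EiJ at 3463 of 15154 genes (22.9%), and among these the C3H/HeJ effect had the same sign and was smaller at 2557, had the same sign and was larger at 92, and had the opposite sign at 814. The signed difference was positive at 2092 and negative at 1371, but positive at 1247 and negative at 1674 with quantile normalization, and positive at 822 and negative at 1494 with median centring. It differed from A/J at 256 of 14670 genes (1.75%), with the C3H/HeJ effect larger at 156, smaller at 6 and opposite at 94. In both contrasts the sign was that of the mean difference, whether or not it was called within the strain. An effect near 0 can therefore count as opposite, as for Cdkn1a, with 3.85 in C3H/HeJ and -0.05 in A/J. Without C3H/HeJ deficient replicate 4 the A/J count was 1066. The filter for these 16-array fits kept a gene that every array of any 1 of the 4 groups read well above background. Some members thus entered only through a WSB/EiJ group, as 27 mitosis genes were tested there against 25 in C3H/HeJ alone. Others could enter through the C3H/HeJ deficient arrays, where mitosis genes are high. Only 16 of the 25 were above background on every C3H/HeJ control array. No count below is limited to genes above background in all 4 groups. For 21 of 27 mitosis genes tested the rise was smaller than in WSB/EiJ, with medians of 2.61 in C3H/HeJ and 4.24 in WSB/EiJ. For 13 of 25 it was larger than in A/J, whose median was 0.79; this count was 8 to 18 over the alternatives and fell under its value by over 1.5 times without C3H/HeJ deficient replicates 2 or 3 or control replicate 2, A/J deficient replicates 2 or 4 or control replicate 2, and with the replicate block. The effect lay below that of WSB/EiJ in 17 of 22 macrophage markers and 19 of 28 interferon-stimulated genes. It lay above that of WSB/EiJ in 19 of 31 cytochromes, 13 of 20 conjugating enzymes and 11 of 16 male-biased genes, whose medians were negative in both strains. These counts against WSB/EiJ moved by less than 1.5 times under each of the 22 alternatives, scaling included. None of these made the filter on background stricter. Of the MHC genes 6 of 17 lay above WSB/EiJ, or 3 with quantile normalization.

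**Figure D4:**
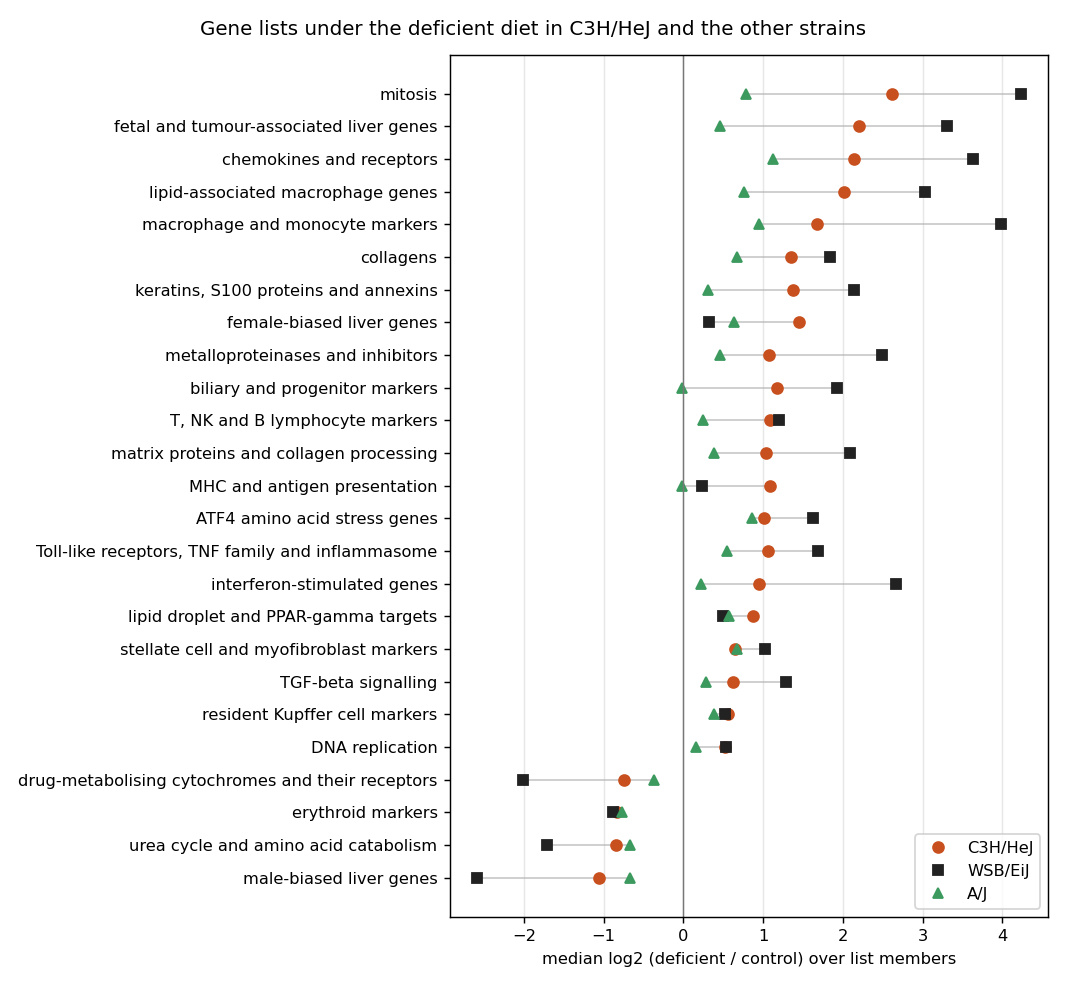
Median log2 fold change, deficient over control, of the members of the 25 gene lists in C3H/HeJ (circles), WSB/EiJ (squares) and A/J (triangles). The C3H/HeJ median lies between the other strains for mitosis, macrophage and cytochrome genes, and above both for female-biased, MHC and lipid droplet genes. The medians include members that passed the background filter only through the C3H/HeJ deficient arrays. Over the 19 lipid droplet genes above background on all C3H/HeJ control arrays the C3H/HeJ median was 0.44. That lies below the points of both other strains (0.498 and 0.565), which were not taken over the same genes.

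The largest differences from WSB/EiJ among genes above background on at least 3 arrays of each of the 4 groups included cytochromes and immune genes. Cyp2c50 differed by 6.01 ± 0.61 (adjusted p = 2.7e-05), with an effect of -1.69 in C3H/HeJ and -7.70 in WSB/EiJ. Cyp2c54 and Cyp2c37 differed by 5.91 ± 0.60 and 5.78 ± 0.64, the germinal centre GTPase Nuggc by 6.88 ± 0.57, Cyp2b10 by 5.67 ± 0.73 and Irx1 by 4.90 ± 0.69. On the other side Ly6a, the surface antigen Sca-1, differed by -6.01 ± 0.54, with an effect of -0.53 in C3H/HeJ and 5.48 in WSB/EiJ. Oas1a differed by -4.37 ± 0.19, Csn3 by -4.74 ± 0.46, Cpe by -4.47 ± 0.67, 1500009C09Rik by -4.31 ± 0.38 and Cyp39a1 by -4.22 ± 0.47. All 12 were called under each of the 22 alternatives tried for this contrast. Against A/J, Spink1 differed by 3.69 ± 0.59 (adjusted p = 0.00953), Ces4a by -4.06 ± 0.69, Cspg5 by -2.61 ± 0.46, Tspyl4 by -2.27 ± 0.39 and Dpys, of pyrimidine breakdown, by -2.23 ± 0.37, each called under all 23 alternatives. Ubd (4.51 ± 1.06), Cyp4a14 (3.84 ± 0.86), H2-Ab1 (3.73 ± 0.86), H2-Q3 (3.30 ± 0.75), St14 (3.26 ± 0.63), Adgrf1 (-2.88 ± 0.60) and Bmf (-2.38 ± 0.54) lost the call under at least 3 of them.

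At 46 of 14543 genes the C3H/HeJ effect differed from both strains on the same side, above both at 29 and below both at 17, and 13 of these were called in both contrasts under all 45 alternatives. The 13 were chosen after their values were seen, and both contrasts share the C3H/HeJ arrays. Cdkn1a rose by 3.85 in C3H/HeJ, against effects of 1.36 in WSB/EiJ and -0.05 in A/J. The differences were 2.49 ± 0.54 and 3.90 ± 0.57 (adjusted p = 0.00543 and 0.00475). In A/J its levels were 0.58, 0.44, 1.02 and -0.30 on the deficient arrays, against 0.61, 0.20, -0.46 and 1.60 on the control arrays, which overlapped. The C3H/HeJ deficient levels given above were not higher than these, and the C3H/HeJ control levels were far below them. Ttc39a, a tetratricopeptide repeat protein, had levels of 1.83, 1.70, 1.95 and 1.21 on the deficient arrays, against -1.80, -1.94, -2.06 and -1.47 on the control arrays in C3H/HeJ, and its difference of 3.49 ± 0.19 compared with -0.14 in WSB/EiJ and 0.91 in A/J. Pdxp, pyridoxal phosphatase, had levels of -2.25, -2.05, -1.21 and -0.94 on the deficient arrays, against -5.13, -4.93, -5.16 and -5.45 on the control arrays in C3H/HeJ. No control array was above background there, so that it was at least 5.22-fold higher on this probe. Its other probe differed by only 1.39. In each of the other strains at least 1 diet group had no array above background. Uts2, a vasoactive peptide, was likewise at least 2.51-fold higher in C3H/HeJ, with no control array above background. Mest, Plscr2 and Zfp772 also lay above both. Obp2a lay below both, but no C3H/HeJ deficient array was above background, nor any array of at least 1 diet group in each other strain, so that no size is given. Its control levels were -5.99, -5.15, -6.07 and -6.06 in WSB/EiJ and -3.53, -6.41, -6.27 and -6.41 in A/J, so that a high level was measured in C3H/HeJ control livers alone. Fut1, a fucosyltransferase, had an effect of 1.10 ± 0.14 in C3H/HeJ and 3.23 in A/J. In WSB/EiJ its levels were 0.30, -0.12, -1.13 and 0.12 on the deficient arrays, against -6.12, -6.47, -6.23 and -6.21 on the control arrays, where 1 diet group had no array above background. Neil2 and Sel1l3 also lay below both.

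**Figure D5:**
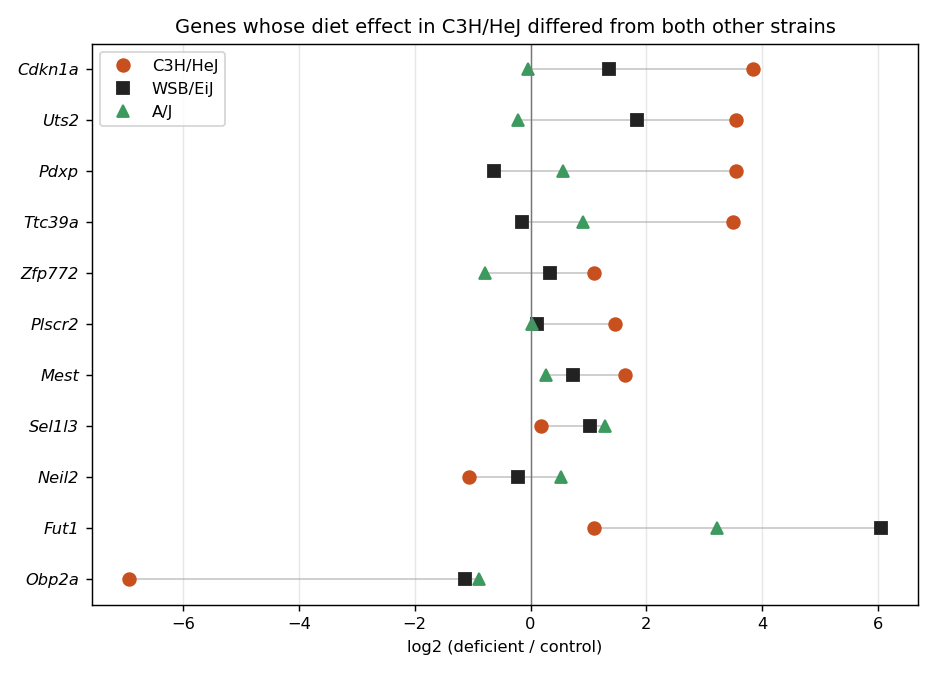
Log2 fold change, deficient over control, of 11 of the 13 genes called in both contrasts under all alternatives, in C3H/HeJ (circles), WSB/EiJ (squares) and A/J (triangles). Cdkn1a, Uts2, Pdxp and Ttc39a lie well above the other strains, and Obp2a well below them. Points of Obp2a, Uts2 and Pdxp, and of Fut1 in WSB/EiJ, rest in part on arrays not above background and are no exact folds. That also holds for Cdkn1a and Zfp772 in C3H/HeJ, where some control arrays were not above background, and for Zfp772 and Fut1 in A/J.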

How the data were processed

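Liver RNA was labelled in 1 colour and read on Agilent mouse arrays. Per the file headers and the submitters' processing notes, the authors extracted spot intensities with Feature Extraction 10.7, which subtracts background and corrects spatial and multiplicative trends within an array and does not scale arrays against each other. The processed signal is in linear intensity units. The deposited files also hold background, saturation and outlier flags (other units: yes or no per spot). The authors also deposited normalized values, which are the processed signal times a constant for each array.

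From these intensities, log2 values were computed here, minus each array's 75th percentile over gene probes, after 3332 spots marked as outliers were left out. Of 55681 gene probes, 26764 were named through their accession, 3818 through their symbol and 638 through a synonym in RefSeq, 951 kept the file's name and 23510 had none. The brightest probe stands for a gene, and a gene was tested where every array of 1 group or of both read it well above background. The diet effect was tested on the 8 C3H/HeJ arrays, and its difference from another strain on 16 arrays, with limma 3.58.1 (lmFit, eBayes) in R 4.3.3 with data.table (version 1.17.8). P-values were adjusted by Benjamini-Hochberg over all genes tested, and a gene is called at an adjusted p under 0.05. The fit was checked on simulated data.

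Genes, lists and tests were chosen with earlier results of these data known. The 58 lists hold 1254 entries, of which 1141 were tested. Named genes are a fixed panel, the 15 largest rises and falls measured on both sides, the 5 largest bounds each way, up to 4 members of each list with the lowest p and up to 2 against its median, and the 6 largest strain differences each way. Genes outside that rule, chosen after their values were seen, are Atf4, B2m, Ccl5, Cd3g, Ddit3, E2f1, Fabp4, Fn1, Fut1, Il1b, Irf7, Lck, Ly96, Mcm7, Mest, Met, Myd88, Neil2, Pcna, Pdxp, Phgdh, Plscr2, Ppara, Psat1, Psmb8, Psmb9, Sel1l3, Sox4, Sqstm1, Tk1, Trp53, Ttc39a, Uts2 and Zfp772. The panel's Bmal1 is given as Arntl, and a few genes that the rule names are not reported here. Arrays limit the precision by their number, and no count underlies a level. Alternatives changed the scaling, background correction, source of values, filter, probe rule, variance model, slide, replicate block and the arrays used.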

Additional observations from a re-analysis of the deposited data

Results flagged for a closer look

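For 34 of the 546 groups of 4 arrays examined for the genes named here, and 3 of the 110 for list scores, 1 array lay far from the others, its gap to the nearest one, as a share of the group's range, being over Dixon's critical value. Chance alone gives about 1 in 20 groups. Deficient array 4 lay apart for Ces4a at -1.94, Cspg5 at 0.45, Cyp2c70 at 7.57, Dnmt1 at -0.25, Egfr at 6.02 and Fabp5 at 5.56, in log2 units after scaling. The same deficient array lay apart for Fgf21 at 2.34, Ifit3 at 3.37, Mogat1 at -0.006, Pdk4 at -0.43, Rad51b at 1.98 and Tfrc at 0.11. Deficient array 3 lay apart for Nqo1 at 0.27 and Pcna at 3.99. Control array 2 lay apart for Abcb4 at 7.29, Cd34 at -1.27, Cyp2c50 at 7.79, Fads2 at 5.22, Gins2 at -3.80 and H2-DMb1 at -1.35. The same control array lay apart for Hamp at 6.32, Krt23 at 0.43, Mat1a at 6.55, Mthfd1l at -0.76, Pkm at -0.55 and Plscr2 at 0.34. So did Psat1 at -5.13 on that control array. Control array 1 lay apart for Tiam2 at -0.55. Control array 3 lay apart for Lck at -1.48, Lgals1 at 1.49 and Rbl1 at -2.38. Control array 4 lay apart for Met at 0.033, Pparg at -1.68 and Tff3 at 2.63. Among list medians, control array 4 lay apart for coagulation and complement at 0.084, control array 2 lay apart for MHC and antigen presentation at -0.31 and control array 2 lay apart for DNA replication at -0.20.

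The diet effect differed between strains for the following genes by the interaction test of limma, with the difference in log2 units as C3H/HeJ minus the other strain. Standard errors and adjusted p-values of those described in the results stand there. Against WSB/EiJ the difference was positive for Nuggc (6.88), Cyp2c50 (6.01), Cyp2c54 (5.91), Cyp2c37 (5.78), Cyp2b10 (5.67), Irx1 (4.90), Pdxp (4.18), Ttc39a (3.63), Cdkn1a (2.49), Uts2 (1.70), Plscr2 (1.35), Mest (0.89) and Zfp772 (0.76). It was negative against WSB/EiJ for Ly6a (-6.01), Obp2a (-5.79), Fut1 (-4.95), Csn3 (-4.74), Cpe (-4.47), Oas1a (-4.37), 1500009C09Rik (-4.31), Cyp39a1 (-4.22), Neil2 (-0.86) and Sel1l3 (-0.83). Against A/J the difference was positive for Ubd (4.51), Cdkn1a (3.90), Cyp4a14 (3.84), Uts2 (3.76), H2-Ab1 (3.73), Spink1 (3.69), H2-Q3 (3.30), St14 (3.26), Pdxp (3.00), Ttc39a (2.58), Zfp772 (1.89), Plscr2 (1.44) and Mest (1.35). It was negative against A/J for Obp2a (-6.04), Ces4a (-4.06), Adgrf1 (-2.88), Cspg5 (-2.61), Bmf (-2.38), Tspyl4 (-2.27), Dpys (-2.23), Fut1 (-2.13), Neil2 (-1.59) and Sel1l3 (-1.09). For Obp2a, Uts2 and Pdxp, and for Fut1 against WSB/EiJ, at least 1 diet group had no array above background, so that these differences are no exact sizes. For Cdkn1a and Zfp772 some C3H/HeJ control arrays were not above background either.

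Probes without a gene name stood outside the comparisons. Of 6810 such probes that passed the background filter, 1919 passed an adjusted p of 0.05 in limma between the deficient and control C3H/HeJ arrays, 400 higher and 1519 lower on the deficient arrays.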

How the results depend on the processing

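The count of 4544 called genes was 3259 to 5690 under 12 other ways of processing, and it was 6325 with unnamed probes, 6954 in 1 fit over 24 arrays, 7657 with array weights, 1834 at an adjusted p of 0.01 and 1981 with a log2 change of at least 1. The 2185 rises became 3385 with scaling on the spike-in probes, 1248 at a p of 0.01 and 1422 with a change of at least 1. The 2359 falls became 1258 with median centring, 1443 with no background filter, 3765 with unnamed probes, 4156 over 24 arrays, 4846 with array weights, 454 on the spike-in scale, 586 at a p of 0.01 and 559 with a change of at least 1. The share of higher calls, 48.1%, was 63.1% with median centring and 88.2% on the spike-in scale. With 1 array left out the calls ran from 2689 to 6470, the rises from 1640 to 2577 and the falls from 1049 to 3893. The total moved by over 1.5 times without deficient replicates 1 (2799) or 2 (2689) or control replicate 3 (3016), and the falls also without deficient replicates 3 (1419) or 4 (3893) or control replicate 1 (1466). Of the 4544 genes, 2467 were called in all 8 such fits. The causes were not tested, apart from the stricter thresholds and the larger number of probes or arrays.

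The replicate numbers do not pair the arrays: same-numbered deficient and control arrays had correlations of their deviations of 0.126, -0.092, -0.126 and 0.046. With the replicate block 3259 genes were called, 1892 higher and 1367 lower, and the difference from A/J was called at 141 genes and that from WSB/EiJ at 3145.

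The 256 differences from A/J became 155 with median centring, 1237 with array weights, 538 over 24 arrays and 79 without both A/J replicate 4 arrays. They were 87 to 1066 with 1 array left out, moving by over 1.5 times without C3H/HeJ control replicates 2 or 3, any C3H/HeJ deficient array, or A/J control or deficient replicates 2 or 4. The 3463 differences from WSB/EiJ were 2316 to 5108 under other processing and 2509 to 4316 with 1 array left out. The within-slide difference of Cd24a was -0.048 on slide 1, against 1.44 over all arrays. All 25 lists far from the median of all genes, picked by that distance in these data, stayed on their side of it within each slide. They also stayed there under the alternatives tried for lists, which left out the spike-in scaling. A scaling by 1 constant per array, such as median centring, could not change the side. Some list medians came much closer to that of all genes. With probes above background on all arrays the lymphocyte list was at -0.148 in place of 1.09, beside -0.161 for all genes.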
